A study of Arabidopsis thaliana with 30 samples.

Results

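RNA levels of the tetraspanin genes TET3 (AT3G45600), TET9 (AT4G30430), TET10 (AT1G63260) and TET15 (AT5G57810) were measured in Arabidopsis thaliana seed on the Affymetrix ATH1 GeneChip. These 4 genes were chosen out of the 15 tetraspanin genes with a named probe set on the chip, which holds 22810 probe sets. The annotation used lists 17 tetraspanin genes. Each of the 4 genes had 1 probe set, and all 4 entered the tests. They were selected on the log2 difference in signal between lec1-1 and wild-type seed on these same arrays. TET15 was picked at 3 stages from the cotyledon stage onward, TET10 at the cotyledon stage, TET9 at the mature green stage and TET3 at the post-mature green stage. The genotype differences are therefore given below as values with no test. The tests bear on the stage steps within each genotype and on late mutant seed against wild-type seedlings. Each of these comparisons uses some of the arrays behind the choice, and only the globular and seedling arrays had no part in it.

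The mutant groups were seed of lec1-1, a mutant of LEAFY COTYLEDON1, collected as 24-hour fertilized seed and then at 4 later stages, which were globular and cotyledon seed, then mature green and post-mature green seed. The wild-type groups were seed of these stages without the globular one, and seedlings 3 days after imbibition. Both genotypes were of ecotype Ws-0, and the labels give growth under continuous light for all groups but the globular one. There were 10 groups of 2 arrays, and the labels describe the pair as biological replicates. LEC1 encodes a subunit of the NF-Y transcription factor that acts in the embryo. Its own level was not analysed here, so no check of the mutant labels by the mutated gene was made. The samples are bulk seed, which holds embryo, endosperm and the maternal seed coat, so that fewer cells of a kind and less RNA per cell cannot be told apart.

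Tetraspanins are small proteins that cross the membrane with their transmembrane helices and gather partner proteins into membrane microdomains. In Arabidopsis the family is known from work on single members. TRN2, also called TET1, is needed for leaf and root patterning, TET8 marks extracellular vesicles and associates with TET9, TET3 has been found at plasmodesmata, and TET5 and TET6 act together in limiting organ growth. Members differ in the cell types in which they are transcribed, in embryos and seedlings as well as in reproductive organs.

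Signals are linear intensities scaled by the authors to one target on each array, a step that the labels of the globular arrays do not state. The median signal of an array lay between 176.8 and 217.4. The 27 control probe sets for Bacillus transcripts served as a gauge of background, chosen after the data were seen. Their median on an array lay between 4.5 and 27.7 and their highest value between 43.5 and 133.3, and 4 of 540 control values reached 100. No label mentions adding these transcripts. A signal under 100 was counted as near background. TET10 reached 100 on 20 of 20 arrays, TET3 on 18, TET9 on 12 and TET15 on 8. The 2 arrays per group limit the precision of every value, and levels of different probe sets were not set against each other. The labels state a lot batch, the same one, for 8 arrays, which are the wild-type seed arrays but for 1 post-mature green array, and 1 array of 24-hour lec1-1 seed. The first wild-type steps, up to the mature green stage, lie wholly within that lot. The lec1-1 steps after the globular stage hold no array labelled with it. With the stated lot as a covariate no stage call of the 4 genes changed, but the differences of those steps cannot move. Only the wild-type post-mature green and seedling steps and the lec1-1 globular step could. For TET3 these went from -1.31 to -1.69, from 4.01 to 3.63 and from 0.79 to 0.41 on the log2 scale. At the cotyledon and mature green stages lot and genotype coincide and cannot be told apart.

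The 4 genes had 4 different profiles. TET15 was high in wild-type seed from the cotyledon stage to the post-mature green stage and no higher than 153.9 on any other array. TET9 was high in the youngest seed of both genotypes and near background in late wild-type seed and seedlings. TET3 and TET10 both had high levels in wild-type cotyledon-stage seed and in seedlings, and TET10 stayed above background throughout. In limma's joint F test over the 5 groups of a genotype, 4 of 4 genes passed in lec1-1, where 60.8% of the 18459 probe sets tested passed, and 4 of 4 passed in wild type, where 80.3% passed. Those shares are high, and passing them sets the 4 genes little apart from other genes.

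**Figure D1:**
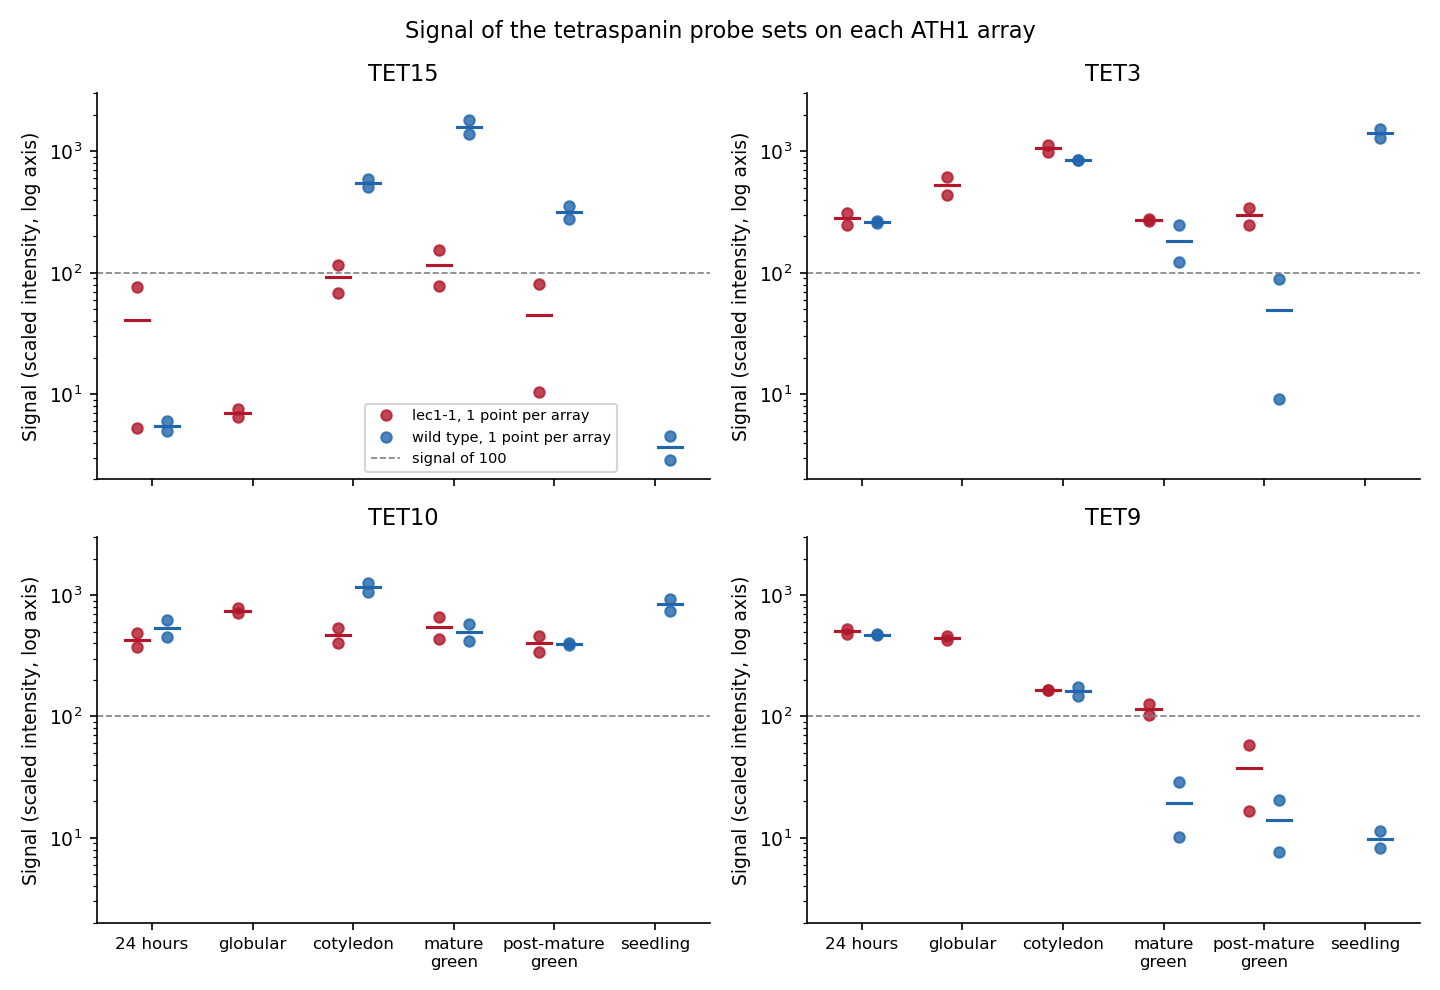
Signal of TET15, TET3, TET10 and TET9 on each array (log axis), with lec1-1 groups left of wild-type groups. Points are single arrays, 2 in each group, and values under the line at 100 are near background. TET15 reaches 1399 and 1807 in wild-type mature green seed, while TET10 lies between 337.6 and 1251.9 on all 20 arrays.

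In wild type, 4 of the 4 genes changed between 24-hour and cotyledon-stage seed, 3 upward and 1 downward, where 24.4% of all probe sets passed, 12.1% upward and 12.2% downward. From the cotyledon to the mature green stage 4 of 4 changed, 1 upward and 3 downward, where 32.6% passed, 14.4% upward and 18.2% downward. From the mature green to the post-mature green stage 2 fell, where 35.4% passed, 16.3% upward and 19.1% downward. Seedlings differed from post-mature green seed in 3 of the 4 genes, 2 higher and 1 lower, where 60.6% passed, 28.1% higher and 32.5% lower. The median log2 step of the 4 genes was 1.29, -1.38, -0.79 and 0.45 over these steps in that order. The median over all probe sets was -0.05, -0.04, 0.04 and -0.15. The wild-type seed arrays of these steps had a part in choosing the genes. The counts and medians are therefore not read as an excess over all probe sets.

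In lec1-1, 1 of the 4 genes passed between 24-hour and globular-stage seed, upward, where 29.9% of probe sets passed, 13.4% upward and 16.5% downward. From the globular to the cotyledon stage 3 passed, 2 upward and 1 downward, where 15.2% passed, 8.27% upward and 6.9% downward. From the cotyledon to the mature green stage 1 fell, where 36.6% passed, 18.8% upward and 17.8% downward. From the mature green to the post-mature green stage 0 of 4 passed in limma, where 3.41% of all probe sets passed, 1.24% upward and 2.17% downward. An unadjusted p under 0.05 was reached by 2 of the 4 at that step, and by 2845 of the 18459 probe sets. Post-mature green lec1-1 seed lay below wild-type seedlings in 2 of the 4 genes and above in 0, where 45.9% passed, 26.4% higher and 19.5% lower. The median log2 step of the 4 genes was 0.29, 0.17, -0.10 and -0.63 over these steps in that order, and over all probe sets it was -0.06, 0.01, 0.03 and 0.01. The lec1-1 arrays other than the globular ones had a part in choosing the genes, so no excess is read from these counts either. Whether steps differed between the genotypes was not tested, because that difference is built from the contrasts that chose the genes.

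**Figure D2:**
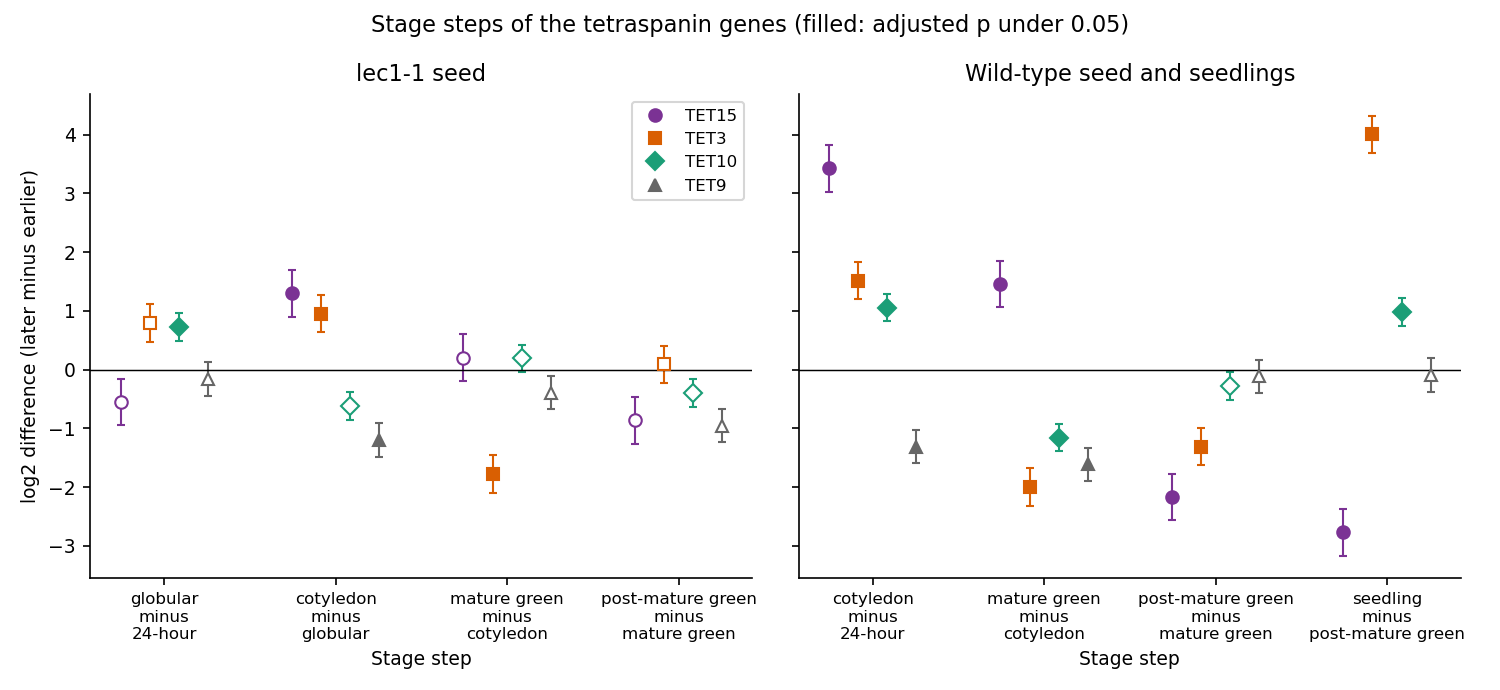
Log2 difference between consecutive stages for each of the 4 genes, later minus earlier, with moderated standard errors (2 arrays in each group). Filled points passed limma's test at an adjusted p under 0.05. All 4 genes passed both wild-type steps up to the mature green stage, and none passed the last lec1-1 step. The seed arrays other than the globular ones had a part in choosing the genes.

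TET15 differed most among wild-type groups. In lec1-1 its signal was 5.3 and 76.1 at 24 hours, 6.5 and 7.5 at the globular stage, 68.6 and 115.9 at the cotyledon stage, 77.9 and 153.9 at the mature green stage, and 10.4 and 80.3 at the post-mature green stage. In wild type it was 6.0 and 5.0 at 24 hours, 588 and 507 at the cotyledon stage, 1399 and 1807 at the mature green stage, 278 and 358 at the post-mature green stage, and 4.5 and 2.9 in seedlings. Only 2 of the 10 mutant arrays reached 100, and the 6 wild-type arrays from cotyledon to post-mature green seed all lay above every mutant array. The order of the top 3 groups, mature green, cotyledon and post-mature green wild type, had no overlap between neighbours, while the 5 mutant groups, which came next, overlapped their mutant neighbours in the order.

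Between 24-hour and cotyledon-stage wild-type seed TET15 rose by at least 5.46-fold, since both 24-hour arrays were near background (log2 difference 3.43 ± 0.40 (SE, n = 2 arrays per group), adjusted p = 2.13e-06). It rose again by 1.46 ± 0.40 on the log2 scale at the mature green stage (adjusted p = 0.00779) and then fell by 2.17 ± 0.40 at the post-mature green stage (adjusted p = 0.000292). Seedlings were at least 3.15-fold lower than post-mature green seed (adjusted p = 6.47e-06). The mature green rise was lost with an offset of 1 (adjusted p = 0.278), without the second wild-type cotyledon array (0.0632) and without the second mature green array (0.0575), and the later fall was lost with an offset of 1 (0.0884).

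In lec1-1 the single TET15 step that passed was cotyledon over globular, at 1.30 ± 0.40 (adjusted p = 0.0322). That call rests on values around background. With signals under 100 set to 100 the TET15 difference was 0.11 (adjusted p = 0.961), and leaving out any 1 of the 4 arrays gave adjusted p-values from 0.0654 to 0.232. Late lec1-1 seed and wild-type seedlings did not pass for TET15 (0.72 ± 0.40, adjusted p = 0.148). Both of those groups were under 100, so no fold is given. With an offset of 1 (2.72, adjusted p = 0.0385) or without the first mutant array (1.28, 0.0291) that comparison passed. The joint test of TET15 over the lec1-1 groups (adjusted p = 0.0169) was lost with signals under 100 set to 100 (0.639), with only the lec1-1 groups fitted (0.0648) and without the second mature green array (0.0610) or either globular array (0.0588 and 0.0553).

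As a description of the contrast that chose the gene, lec1-1 minus wild type was -2.09 ± 0.40 at the cotyledon stage and -3.34 ± 0.40 at the mature green stage for TET15. At the post-mature green stage lec1-1 was at least 3.15-fold lower. The arrays of the genotypes did not overlap at these 3 stages, and at 24 hours both genotypes were under 100. With the stated lot as a covariate the TET15 differences at those 3 stages were -2.84, -4.10 and -2.42. That lot term rests on the groups that mix arrays with and without a stated lot, 24-hour lec1-1 and post-mature green wild type. For TET15 the former held 5.3 and 76.1, both near background, so the adjusted values do not part lot from genotype. In that contrast, over all probe sets, 0.119% passed at 24 hours, 0.71% at the cotyledon stage, 28.7% at the mature green stage and 44.1% at the post-mature green stage. Sums of embryo maturation markers were also lower in lec1-1 from the cotyledon stage on. For the 3 of 6 listed genes with a probe set, AT4G36700, PAP85 and OLEO3, the summed signal in lec1-1 was 2797 to 2965 at the cotyledon stage, 23533 to 27354 at the mature green stage and 34042 to 34289.7 at the post-mature green stage. In wild type it was 10587 to 12924, 131883 to 144741 and 106666 to 115138 at those stages. TET15 was not in step with these sums. The lec1-1 sums at the mature green and post-mature green stages lay above the wild-type cotyledon sum. TET15 was 77.9 and 153.9, then 10.4 and 80.3 in lec1-1 at those later stages, against 588 and 507 in cotyledon-stage wild type. At the cotyledon stage PAP85 was near background in both genotypes, at 64 and 78.4 in lec1-1 and 84.3 and 31.3 in wild type. In lec1-1 PAP85 carried the higher sum at the post-mature green stage, at 23472 and 22901, against 14539 and 14947 at the mature green stage, while the arrays of these stages overlapped for AT4G36700 and OLEO3. Their part in the TET15 differences was not tested.

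TET3 had its highest level in wild-type seedlings. In lec1-1 its signal was 249.8 and 312.8 at 24 hours, 440.2 and 615.1 at the globular stage, 1139 and 980.3 at the cotyledon stage, 276.5 and 268.6 at the mature green stage, and 343.9 and 249.6 at the post-mature green stage. Wild-type signals were 269.6 and 258.5 at 24 hours, 842.4 and 854.9 at the cotyledon stage, 121.7 and 246.1 at the mature green stage, 9.2 and 89.6 at the post-mature green stage, and 1537 and 1299 in seedlings. All 10 mutant arrays lay at 249.6 or more, and the 2 post-mature green wild-type arrays were the only ones under 100. Seedlings, then cotyledon-stage lec1-1, cotyledon-stage wild type and globular lec1-1 led the order with no overlap between neighbours. Post-mature green, 24-hour and mature green lec1-1 and 24-hour wild type overlapped one another.

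From 24-hour to cotyledon-stage wild-type seed TET3 rose by 1.52 ± 0.32 on the log2 scale (adjusted p = 0.00137), a 3.21-fold ratio of signals. It then fell by 1.99 ± 0.32 at the mature green stage (adjusted p = 7.08e-05). Post-mature green seed was at least 1.73-fold lower again (adjusted p = 0.00331), and seedlings were at least 14.1-fold higher than post-mature green seed (adjusted p = 2.44e-09). The first rise was lost with an offset of 1 (adjusted p = 0.0714). The post-mature green fall was lost when only its own groups were fitted (0.158), without the second mature green array (0.0701) and without the first post-mature green array (0.0846). Among the arrays of the stated lot TET3 fell by 1.93 at that step (adjusted p = 8.36e-05).

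In lec1-1 TET3 had the same peak at the cotyledon stage. Its rise over the globular stage was 0.95 ± 0.32 (adjusted p = 0.0499). That call was lost with an offset of 1 (0.355), with no filter on low signals (0.0652), with 75th-percentile scaling (0.0554) and without any 1 of the 4 arrays (0.0652 to 0.324). The earlier step, globular over 24 hours, was 0.79 ± 0.32 and did not pass (adjusted p = 0.0695), but did so with signals under 100 set to 100 (0.0280) and with only its own groups fitted (0.0307). The fall at the mature green stage was 1.78 ± 0.32 (adjusted p = 0.000207), and the step after it did not pass (0.09 ± 0.32, adjusted p = 0.939). With an offset of 1 the joint test of TET3 over the lec1-1 groups missed the threshold (0.0519). Late mutant seed stayed 2.09 ± 0.32 below wild-type seedlings (adjusted p = 2.47e-05), with a signal ratio of 0.207.

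As a description, lec1-1 minus wild type for TET3 was 0.07 at 24 hours, 0.30 at the cotyledon stage, 0.52 at the mature green stage and 1.92 at the post-mature green stage (SE 0.32 each). At the last stage lec1-1 was at least 2.93-fold higher, and arrays of the genotypes did not overlap from the cotyledon stage on. With the stated lot as a covariate the TET3 difference turned to -0.31, -0.46 and -0.24 at the first 3 stages and was 1.54 at the last. The lot term rests on the same mixed groups as for TET15. It does not part lot from genotype at the cotyledon and mature green stages. Among the arrays of the stated lot it was -0.07 at 24 hours, and among those with no stated lot it was 1.30 at the post-mature green stage. Seedling markers were also higher in lec1-1 at the post-mature green stage. For PYK10, LHCB4.2 and PRK, 3 of 5 listed seedling genes, the summed signal was 10683 to 10882 in post-mature green lec1-1 and 567.6 to 827.1 in post-mature green wild type, against 51754 to 53539 in wild-type seedlings. PYK10 made up most of the mutant sum, at 8043 and 8681. At the mature green stage PYK10 was 8510.2 and 7278 in lec1-1, against 60.1 and 64.9 in wild type, while LHCB4.2 and PRK went the other way. LHCB4.2 was 648.7 and 393.9 in lec1-1 there, against 1421 and 2172 in wild type, and PRK was 1028 and 832.6 in lec1-1, against 3531 and 6489 in wild type. In cotyledon-stage seed, where TET3 peaked within each genotype's seed, those markers summed to 2776 to 3351 in lec1-1 and 3348 to 4535 in wild type. The seed-coat markers BAN and DELTA-VPE, 2 of 5 listed, summed to 40119 to 43193 and 32689 to 38772 there, and to 9.3 to 44.9 in seedlings. At the globular stage of lec1-1 they summed to 31868 to 36784. TET3 there was 440.2 and 615.1, against 1139 and 980.3 at the cotyledon stage of lec1-1. The part of either list in the TET3 values was not tested.

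TET10 had the narrowest range of the 4 genes. In lec1-1 its signal was 485.3 and 375.3 at 24 hours, 777 and 708.1 at the globular stage, 531.9 and 403.7 at the cotyledon stage, 434.6 and 659.8 at the mature green stage, and 337.6 and 461.2 at the post-mature green stage. Wild-type signals were 448.2 and 625.3 at 24 hours, 1252 and 1070 at the cotyledon stage, 419.9 and 574.2 at the mature green stage, 387.4 and 405.8 at the post-mature green stage, and 935.6 and 745.2 in seedlings. Cotyledon-stage wild type stood above all other groups, and seedlings and globular-stage lec1-1 came next and overlapped each other. The 7 groups below them each overlapped their neighbours in the order.

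In wild type TET10 rose at the cotyledon stage by 1.06 ± 0.24 on the log2 scale (adjusted p = 0.00233), a 2.19-fold ratio. It fell by 1.16 ± 0.24 at the mature green stage (adjusted p = 0.000818) and did not pass at the post-mature green stage (-0.28 ± 0.24, adjusted p = 0.389). Seedlings were 0.99 ± 0.24 above post-mature green seed (adjusted p = 0.00133), a 2.11-fold ratio. Without the first 24-hour array the cotyledon rise was 0.84 (adjusted p = 0.0520).

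The TET10 rise in lec1-1 came at the globular stage, by 0.73 ± 0.24 over 24 hours (adjusted p = 0.0243), a 1.74-fold ratio. It was lost without the second 24-hour array (0.194), the first globular array (0.126) or the second (0.0643). The following steps were -0.62 ± 0.24 (adjusted p = 0.0862), 0.19 (0.574) and -0.40 (0.455), and none passed. TET10 passed the joint test over the lec1-1 groups at an adjusted p of 0.0333, and leaving out any of 4 of the 10 arrays ended that call (0.0580 to 0.184). Post-mature green lec1-1 seed was 0.99 ± 0.24 below wild-type seedlings (adjusted p = 0.00194), with a signal ratio of 0.473. A globular-stage group was measured in lec1-1 only, so whether wild-type seed held a like level at that stage was not measured.

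As a description, TET10 in lec1-1 minus wild type was -1.23 ± 0.24 at the cotyledon stage, a signal ratio of 0.400 with no overlap between the arrays. At the other 3 stages it was -0.28, 0.11 and -0.0044 in order of time (SE 0.24 each), and the arrays overlapped. The embryo-marker sums given above were lower in lec1-1 at the cotyledon stage too, through AT4G36700 and OLEO3, with PAP85 near background in both genotypes. These sums were lower in lec1-1 at the mature green and post-mature green stages as well, where TET10 differed by 0.11 and -0.0044. In wild type the sum was 10587 to 12924 at the cotyledon stage and 131883 to 144741 at the mature green stage. TET10 fell by 1.16 over that wild-type step. The part of these markers in the TET10 difference was not tested.

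TET9 was highest in the youngest seed. In lec1-1 its signal was 525.8 and 477.5 at 24 hours, 424.9 and 464.2 at the globular stage, 163.8 and 166.8 at the cotyledon stage, 102.1 and 127.4 at the mature green stage, and 16.5 and 58.4 at the post-mature green stage. Wild-type TET9 signals were 479.1 and 465.3 at 24 hours, 174.5 and 147.3 at the cotyledon stage, 29.0 and 10.1 at the mature green stage, 7.7 and 20.4 at the post-mature green stage, and 11.4 and 8.3 in seedlings. All 4 arrays of 24-hour seed lay above every globular array, and the genotypes overlapped at 24 hours and at the cotyledon stage. From the mature green stage on, all 6 wild-type arrays were under 100, and so were both post-mature green mutant arrays.

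In wild type TET9 fell by 1.31 ± 0.28 on the log2 scale between 24-hour and cotyledon-stage seed (adjusted p = 0.00183), with a signal ratio of 0.340. Mature green seed was at least 1.60-fold lower again (adjusted p = 0.000202). The last 2 wild-type steps compare values under 100 and did not pass (adjusted p = 0.798 and 0.799). With an offset of 1 the first fall was lost (0.1003).

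In lec1-1 the TET9 level at the globular stage was 0.16 ± 0.28 below that at 24 hours (adjusted p = 0.747), and at the cotyledon stage it fell by 1.20 ± 0.28 (adjusted p = 0.00683), a signal ratio of 0.372. That fall was lost with an offset of 1 (0.178), without the first cotyledon array (0.0514) and without the second globular array (0.0559). The next steps were -0.39 ± 0.28 (adjusted p = 0.311) and -0.95 ± 0.28 (adjusted p = 0.0777) and did not pass. Late mutant seed was 0.50 ± 0.28 above seedlings on this scale, with both groups under 100 (adjusted p = 0.160). These calls moved near background. The cotyledon to mature green step passed with signals under 100 set to 100 (-0.54, adjusted p = 0.0174), the last step passed without the second post-mature green array (-1.30, adjusted p = 0.0379), and the comparison with seedlings passed without the first post-mature green array (0.86, adjusted p = 0.0426).

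As a description, lec1-1 minus wild type for TET9 was 0.08 at 24 hours and 0.03 at the cotyledon stage (SE 0.28 each), with overlapping arrays. At the mature green stage lec1-1 was at least 1.14-fold higher, a log2 difference of 1.25 ± 0.28. The mutant arrays there lay just above 100, and the highest control values on single arrays reached 133.3, so this difference is one between a level at the edge of background and a level within it. Setting TET9 signals under 100 to 100 left 0.19. At the post-mature green stage both genotypes were under 100. The silique-wall marker ALC, 1 of 4 listed genes with a probe set, also fell up to the mature green stage, but not in step with TET9. Its signal in lec1-1 was 7301 to 8135 at 24 hours, 3591 to 4138 at the globular stage, 962.6 to 1040 at the cotyledon stage and 347.1 to 471.1 at the mature green stage. In wild type it was 6180 to 7731 at 24 hours, 739.7 to 751.1 at the cotyledon stage and 179.3 to 190.6 at the mature green stage. At the post-mature green stage ALC was 392.9 to 402.6 in lec1-1, within its mature green range, and 133.6 to 146.5 in wild type. TET9 in lec1-1 was lower there, at 16.5 and 58.4, against 102.1 and 127.4 at the mature green stage. From 24 hours to the globular stage ALC fell in lec1-1, while the TET9 step of -0.16 did not pass. The part of silique tissue in the TET9 values was not tested.

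**Figure D3:**
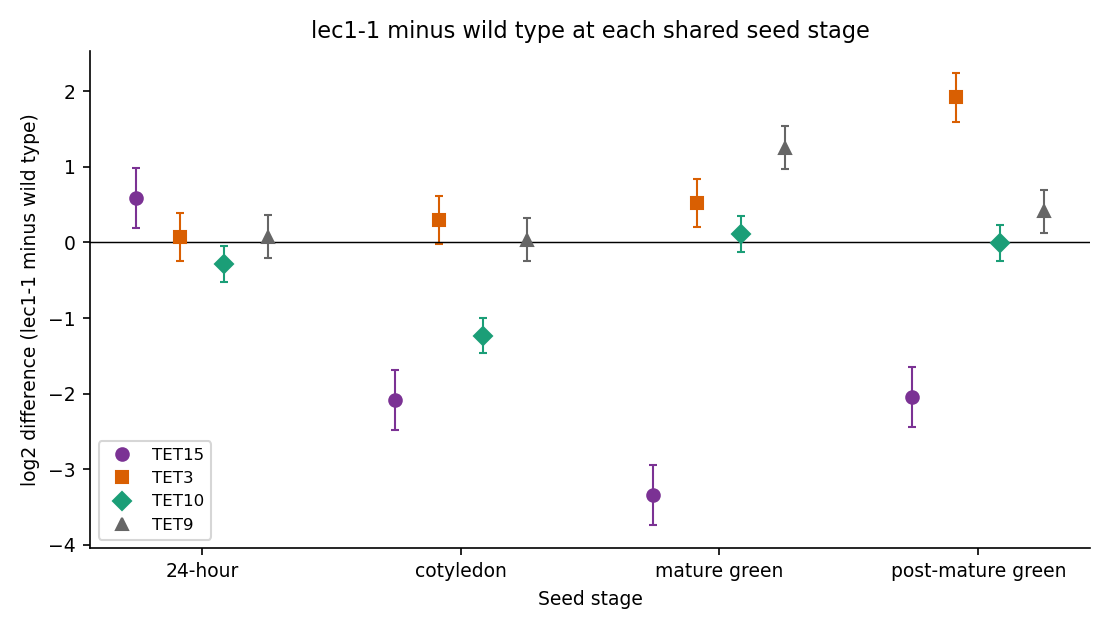
Log2 difference lec1-1 minus wild type for the 4 genes at the 4 stages sampled in both genotypes, with moderated standard errors (2 arrays in each group). These differences chose the genes and carry no test. TET15 reaches -3.34 at the mature green stage, and TET3 reaches 1.92 at the post-mature green stage.

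Across the 10 group means, Pearson's r between TET3 and TET10 was 0.65, and the other 5 pairs lay between -0.45 and 0.15, as a description over groups that share arrays and scaling. By the same measure over 10357 genes, the genes whose profile was most like that of TET3 were TMT1, a vacuolar-membrane sugar transporter (r = 0.979), AT5G07580 (0.956) and FTSZ2-2, a plastid division protein (0.944). For TET15 they were AT2G34700 (0.983), AT5G22810 (0.940) and AT1G53690 (0.936). For TET9 they were AT5G06190 (0.978), AT2G32790 (0.972) and EMS1, a receptor kinase known from anther development (0.971). For TET10 the likeness was lower, with AT1G76110 (0.848), AT5G40060 (0.846) and AT5G10910 (0.835). With n = 10 groups these are descriptions. Of the 12 genes, 7 were among the nearest 3 by Pearson's r over the 20 arrays and 5 by Spearman's rho over the groups.

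Of the 11 other tetraspanin genes with a probe set, 9 passed the filter on low signals, and TET12 and TET16, with 1 array at 100 or more each, did not. All counts that follow are limma calls at an adjusted p under 0.05. Beside them is the share of all probe sets that passed in either direction, unless a direction is named. In wild type 2 of the 9 rose at the cotyledon stage (24.4% of probe sets changed, 12.1% upward). At the mature green stage 3 fell (32.6%, 18.2% downward). At the post-mature green stage 2 rose and 2 fell (35.4%), and in seedlings 1 was higher and 3 were lower than in post-mature green seed (60.6%). In lec1-1 1 rose and 1 fell at the globular stage (29.9%), and 1 fell at the cotyledon stage (15.2%, 6.9% downward). At the mature green stage of lec1-1 1 rose and 2 fell (36.6%), and 1 rose at the post-mature green stage (3.41%, 1.24% upward). Post-mature green lec1-1 seed differed from seedlings in 2 of the 9, 1 higher and 1 lower (45.9%). Between genotypes 0 of the 9 passed at 24 hours (0.119%) and 0 at the cotyledon stage (0.71%). At an unadjusted p under 0.05 there were 0 and 2 of the 9 at these stages, and 823 and 1633 of the 18459 probe sets. Of the 9, 3 passed at the mature green stage (28.7%) and 3 at the post-mature green stage (44.1%). These 9 genes are what remained after the 4 were taken out on that same genotype contrast, so nothing is read from its counts.

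TET4 had its wild-type peak in post-mature green seed, where TET15 and TET3 had fallen. In lec1-1 its signal was 48.6 and 44.0 at 24 hours, 133.2 and 105.5 at the globular stage, 226.2 and 358.4 at the cotyledon stage, 300.0 and 292 at the mature green stage, and 1015 and 1022 at the post-mature green stage. Wild-type TET4 signals were 8.3 and 114.7 at 24 hours, 454 and 445 at the cotyledon stage, 142.7 and 76.2 at the mature green stage, 1798 and 2690 at the post-mature green stage, and 88.5 and 77.1 in seedlings. The wild-type TET4 steps were 2.35 ± 0.36 (adjusted p = 5.60e-05), -1.68 ± 0.36 (0.00123) and 3.85 ± 0.36 (1.29e-07), and seedlings were at least 22.0-fold lower than post-mature green seed (1.04e-08). The lec1-1 rise at the post-mature green stage was 1.63 ± 0.36 (adjusted p = 0.0134). It was lost with an offset of 1 (0.286) and without any 1 of the 4 arrays (0.0746 to 0.115).

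TET7 fell by 2.17 ± 0.23 on the log2 scale at the post-mature green stage of wild type (adjusted p = 7.44e-07), and seedlings were 1.53 ± 0.23 higher (1.33e-05). Its low point in wild type was thus the same group as that of TET3. TET11 was at least 2.52-fold higher in cotyledon-stage wild type than at 24 hours (adjusted p = 0.00214), a call lost without the second 24-hour array (0.0516). TET11 then fell by 1.68 ± 0.45 at the mature green stage (0.00668). That call was lost with an offset of 1 (0.0578), with only its own groups fitted (0.0611), without the first cotyledon array (0.0568) and without the first mature green array (0.168). TET6 passed the wild-type post-mature green step (1.32 ± 0.37, adjusted p = 0.00866) and the lec1-1 mature green step (1.21 ± 0.37, 0.0137), but it reached 100 on 4 of 20 arrays. With TET6 signals under 100 set to 100 those differences were 0.07 (0.673) and 0.11 (0.473). The first TET6 call was also lost with only its groups fitted (0.0677) and without the second post-mature green array (0.0615). The other was lost with only its groups fitted (0.0606), without either cotyledon array (0.0608 and 0.0583) and without the first mature green array (0.175).

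TET2 rose at the globular stage of lec1-1 by 1.78 ± 0.25 (adjusted p = 1.86e-05) and fell by 0.90 ± 0.25 at the cotyledon stage (0.0185) and by 1.10 ± 0.25 at the mature green stage (0.00178). The cotyledon fall of TET2 was lost without any 1 of the 4 arrays (0.0570 to 0.124), and the mature green fall without the first mature green array (0.05003). Its 2 globular arrays, at 1455 and 1691, were the highest of all 20. TET10 passed the same globular step in the same direction. TET8, known with TET9 from extracellular vesicles, had its lowest signal at 1114 and fell at the mature green stage of lec1-1 by 0.80 ± 0.25 (adjusted p = 0.0166). That TET8 call was lost without the second cotyledon array (0.115) and without the second mature green array (0.111). TET8 lay above the highest control of the array on all 20 arrays, and TET9 did so on 11.

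**Figure D4:**
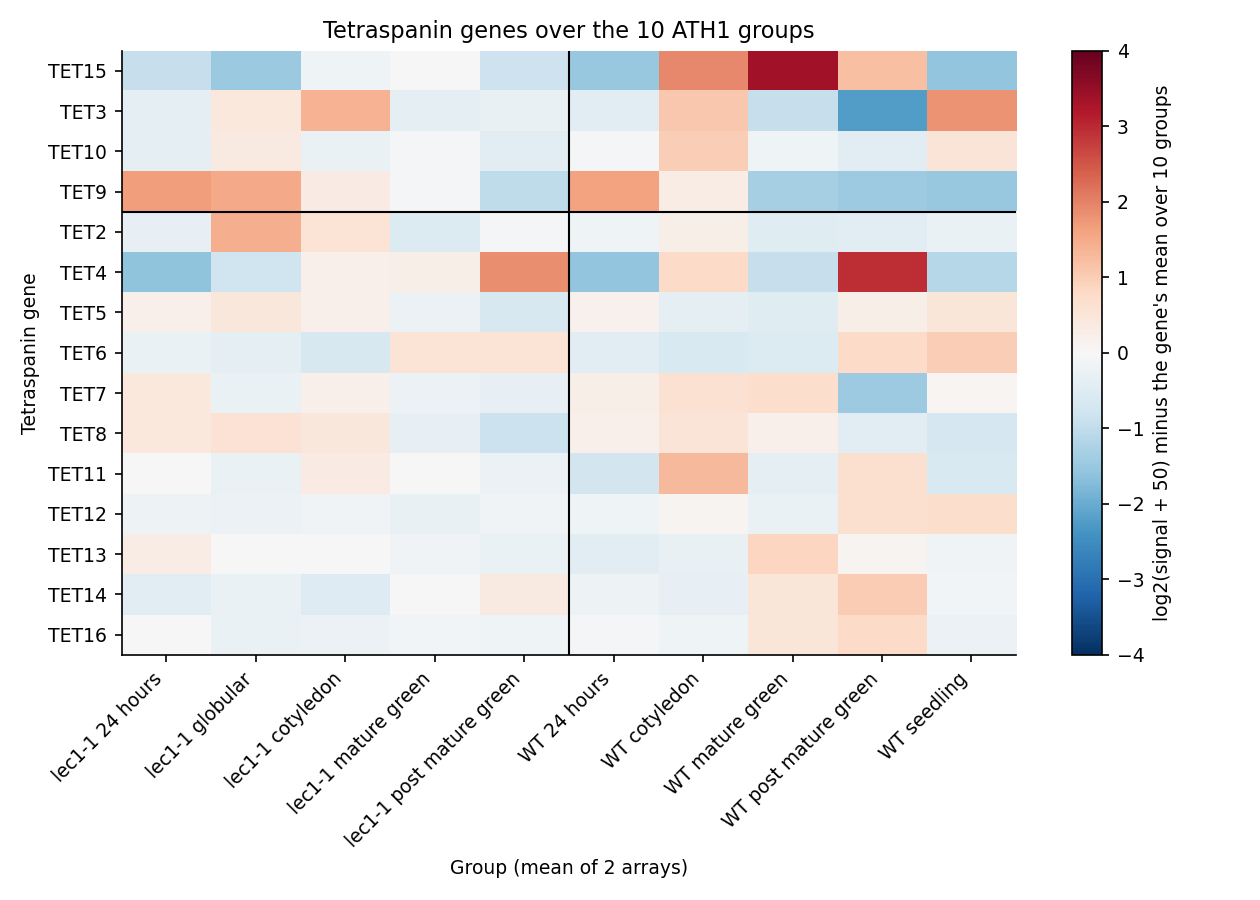
Mean log2(signal + 50) of the 15 tetraspanin genes with a probe set in the 10 groups, lec1-1 left of wild type, relative to that gene's own mean over the groups. The 4 genes described here head the map, and TET4 stands out in post-mature green seed of both genotypes, the stage at which TET3 and TET15 were lowest or falling in wild type.

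On the older AtGenome1 GeneChip, none of the 4 genes had a named probe set. TET7 and TET8 did, with 1 sample on 2 technical arrays in each group and no test. TET7 gave average differences of 1747 and 1607 in lec1 seed at mid-maturation, against 2969 and 2998 in wild type, and at 24 hours it gave 2439 and 1888 in lec1, against 3570 and 3133 in wild type. On ATH1 TET7 was lower in lec1-1 at the mature green stage too, but at 24 hours its signal was 1696 and 1579 in lec1-1, against 1528 and 1304 in wild type. TET8 gave 14728 and 14293 in lec1 at mid-maturation, against 8457 and 8359 in wild type, while on ATH1 its signal was 2214 and 1854 in mature green lec1-1, against 2666 and 3251 in wild type. The scales and array designs differ, and so do the stage labels, mid-maturation against mature green. The AtGenome1 titles also give lec1 with no allele. The chips are therefore set side by side only by direction.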

How the data were processed

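Per the labels, biotinylated cRNA from total RNA was hybridized and scanned. ATH1 intensity, linear as deposited, came from Affymetrix's MAS 5.0 software, which scaled each array to a common target, per the labels. The labels of the 2 globular arrays state no processing. For AtGenome1 the authors deposited average differences, an intensity from MAS 4.0. Genome builds are not given in the sources used here, and RefSeq's TAIR10.1 annotation was used for names only.

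Signals were tested as log2(signal + 50) with limma 3.58.1 in R 4.3.3 (lmFit, contrasts.fit, eBayes with trend), with 20 arrays in 1 model of 10 groups (10 residual and 8.64 prior degrees of freedom). The 64 controls and probe sets with fewer than 2 arrays at 100 were left out, leaving 18459. Tests were two-sided, adjusted by Benjamini-Hochberg over all of them, at a threshold of 0.05. The script was tested on simulated data. "At least N-fold" is the geometric mean of one group over 100, where both arrays of the other were lower.

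The members, lists and named genes were chosen with earlier results of these data known. Named were the 4 members, up to 4 other tetraspanin genes per genotype by size of a passing stage step, and the 3 genes nearest each member. The alternatives were offset, floor, scaling, filter, stated lot, replicate number, groups fitted and arrays left out.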

Additional observations from a re-analysis of the deposited data

Results flagged for a closer look

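For 2 tetraspanin genes other than the 4 described, every lec1-1 array lay beyond both wild-type arrays one way at the mature green stage and the other way at the post-mature green stage. That difference between stages was not tested. At the mature green stage lot and genotype coincide and cannot be told apart. These genotype calls were not followed across the alternatives. Of the wild-type TET4 arrays at the mature green stage, the second was near background, at 76.2. TET4 was 1.15 ± 0.36 higher in lec1-1 on the log2 scale at the mature green stage (adjusted p = 0.0215, limma) and -1.07 ± 0.36 at the post-mature green stage (adjusted p = 0.0209), a shift of -2.22. TET7 was -0.96 ± 0.23 in lec1-1 at the mature green stage (adjusted p = 0.00392) and 1.13 ± 0.23 at the post-mature green stage (adjusted p = 0.000628), a shift of 2.09. The TET7 signals at the mature green stage were 967.6 and 1048 in lec1-1, against 1509 and 2680.1 in wild type, and at the post-mature green stage they were 857 and 1065 in lec1-1, against 325.5 and 512.1 in wild type.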

How the results depend on the processing

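Where no single array was left out, 334 of the members' tested values kept direction and call. Another 13 lost the call, 4 gained it and 1 reversed. With 1 array left out these numbers were 188, 25, 3 and 8. The first set of counts includes refits on a contrast's own arrays, which drop the remaining groups. It also includes the replicate block, which left the TET3 stage differences unchanged. Joint tests have no direction and count by call alone. With an offset of 1, members passing fell to 2 of 4 at the wild-type cotyledon step, 1 at the post-mature green step and 1 at the lec1-1 cotyledon step. With signals under 100 set to 100, 2 members passed the lec1-1 globular step and 2 the lec1-1 mature green step. Of all probe sets 5545 and 6624 passed these under that floor. With only the groups of a contrast fitted 1 member passed the wild-type post-mature green step and 2 the lec1-1 globular step. Of all probe sets 2934 and 5834 passed these under that fit. Leaving out 1 array gave 1 to 2 members at the wild-type post-mature green step, 0 to 1 at the lec1-1 globular, cotyledon and post-mature green steps, 2 to 4 for late lec1-1 against seedlings, and 2 to 4 in the lec1-1 joint test. Under the replicate block 4, 4, 2 and 3 members passed the wild-type steps and 1, 3, 1 and 0 the lec1-1 steps, and no member's call changed. Of all probe sets 4585, 6082, 6639 and 11222 passed those wild-type steps, and 5633, 2895, 6826 and 650 the lec1-1 steps. Over 45 pairs of groups the correlation of same-numbered deviations ran from -0.0855 to 0.184 and passed 0.1 in 3. The arrays were therefore not treated as paired by replicate number, though with 2 arrays a group this cannot settle whether they were. Over all probe sets, the lec1-1 minus wild type calls at the mature green stage numbered 5297, against 2974 with the stated lot as a covariate and 2648 with only its groups fitted. The cotyledon calls numbered 131, against 83 with the lot, 238 with signals under 100 set to 100, 326 with only its groups and 45 to 69 with 1 array left out, and the 24-hour calls 22, against 39 with signals under 100 set to 100 and 5 to 12 with 1 array left out. Among stage steps, the wild-type post-mature green calls numbered 6529, against 2934 with only its groups fitted. The lec1-1 post-mature green calls numbered 630, against 387 with an offset of 1, 338 with only its groups, 371 without the first mature green array and 208 without the first post-mature green array. The lec1-1 cotyledon calls numbered 2799, against 1454 and 1520 without either cotyledon array and 1506 without the first globular array. Reversals were small and among steps that did not pass. TET15's lec1-1 mature green step was -0.044 under quantile normalization and ran from -0.133 to 0.540 with 1 array left out. With 1 array left out, TET15's lec1-1 globular step ran from -1.15 to 0.0436, TET10's lec1-1 mature green step from -0.0845 to 0.466 and TET3's lec1-1 post-mature green step from -0.106 to 0.288. TET9's wild-type post-mature green step ran from -0.310 to 0.0847 and its seedling difference from -0.235 to 0.0523. The cause of these shifts was not tested. Signals near background, on 12 arrays for TET15 and 8 for TET9, limit what can be read.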
